A study of Mus musculus with 24 samples.

Results

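A set of 92 cDNA clones had a female:male expression ratio that was high at day 7 of mouse embryonic stem (ES) cell differentiation and close to 1, on average, both before and after it. The measured values chose the members. For each clone, means were taken of the log2 female:male ratio (M value), after the median of each array had been subtracted: the mean of the 8 arrays of days 0, 2 and 4, the mean of the 2 arrays of day 7 and the mean of the 10 arrays of days 12, 15 and 21. A member had a day 7 mean of at least 0.8, which is 1.74-fold on the linear scale, an early mean between -0.25 and 0.25 and a late mean between -0.3 and 0.3. The library holds 15247 clones, 3527 of them had a value on all 20 ES cell arrays, 1345 of these met the early and late limits, and 92 of these (2.61% of the 3527) reached the day 7 limit. The height of the day 7 peak is therefore the definition of the set and is given as a description, with no test.

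Each slide carried a female and a male sample of the same day, in different dyes. The female ES cells, by the paper's account of the number of arrays per day, were of the line PGK12.1, derived from a cross of strains, and the male ES cells of the line CCE/R. The sample labels name both lines, and a further hybrid line (3F1), without tying a line to an array. Each sex was thus 1 line, and sex, line and strain cannot be told apart on these arrays. Day 0 cells were undifferentiated. Cells of days 2, 4, 7, 12, 15 and 21 were differentiating, after withdrawal of the cytokine LIF and loss of attachment to the dish. Day 0 had 4 arrays, days 2, 4, 7 and 15 had 2 each, day 12 had 3 and day 21 had 5. A pair of arrays compared lymphocytes from the thymus of female and male Balb/c mice (4 weeks old), and another pair compared the inner cell mass (ICM) of female and male Balb/c embryos. ICM RNA was amplified before labelling, and the male ICM samples were technical replicates by the study's description of its ICM data. The female:male direction of the ratios is likely, from the definition given in the study, and arrays of opposite dyes on the same day ran the same way.

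Differentiating ES cells leave pluripotency and pass through mixtures of early embryonic cell types, with many genes switched on only for a few days. Female ES cells start with both X chromosomes active and silence one of them while they differentiate, so X-linked genes in particular change their female:male ratio. A transient peak in the ratio means that a transcript was for a time more abundant in the female culture relative to the male one. In bulk RNA, more cells of a type and more RNA per cell cannot be told apart. The rows of the data carry the names of cDNA clones from an early embryonic library and 0 of the 15247 names matched the RefSeq table used here. Neither the genes of the members nor their chromosomes are known here, so no function is given for a member, X-linked clones are not separated, and the labelled cell types were not checked against marker genes. As 4 clones at most are named, the other members are given by counts and ranges.

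An array had values for 4985 to 13736 clones, and the labels of 15 of the 24 arrays mention removal of abnormal spots by hand. The deposited medians of the arrays were -0.0815 to 0.0398. Over the 3527 clones the spread of an array, as the scaled median absolute deviation of the M values, was 0.52 and 0.65 at day 7, 0.39 to 0.74 on the other 18 ES cell arrays, 0.19 and 0.21 in lymphocytes and 0.99 and 1.32 in ICM. The ICM arrays thus had the widest spread of all 24 arrays. The same 3527 clones had medians of -0.13 to -0.09 on the 5 day 21 arrays and of -0.05 to 0.06 on the other 15 ES cell arrays, so the level taken as 0 affects signs at day 21. Precision is limited by how few arrays there were, and all p-values measure the spread between arrays.

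At day 7 the median of the 92 clones was 0.97 on array I and 1.11 on array J. On the other 18 ES cell arrays it was -0.19 to 0.15. The day 7 mean of a clone ranged from 0.80 to 2.27, with quartiles of 0.85 and 1.24 and a median of 1.01, or 2.02-fold. The lower quartile thus lay close to the limit. The mean was above 1 in 48 clones, above 1.5 in 12 and above 2 in 4, and the highest was 4.81-fold. The 5 clones just inside the limit had means of 0.801, 0.807, 0.808, 0.810 and 0.812, and the 5 just outside it had 0.799, 0.792, 0.788, 0.784 and 0.783. There were 23 clones within 0.05 above the limit and 16 within 0.05 below it, so no gap separated the members from the clones that met the early and late limits but fell short at day 7.

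**Figure D1:**
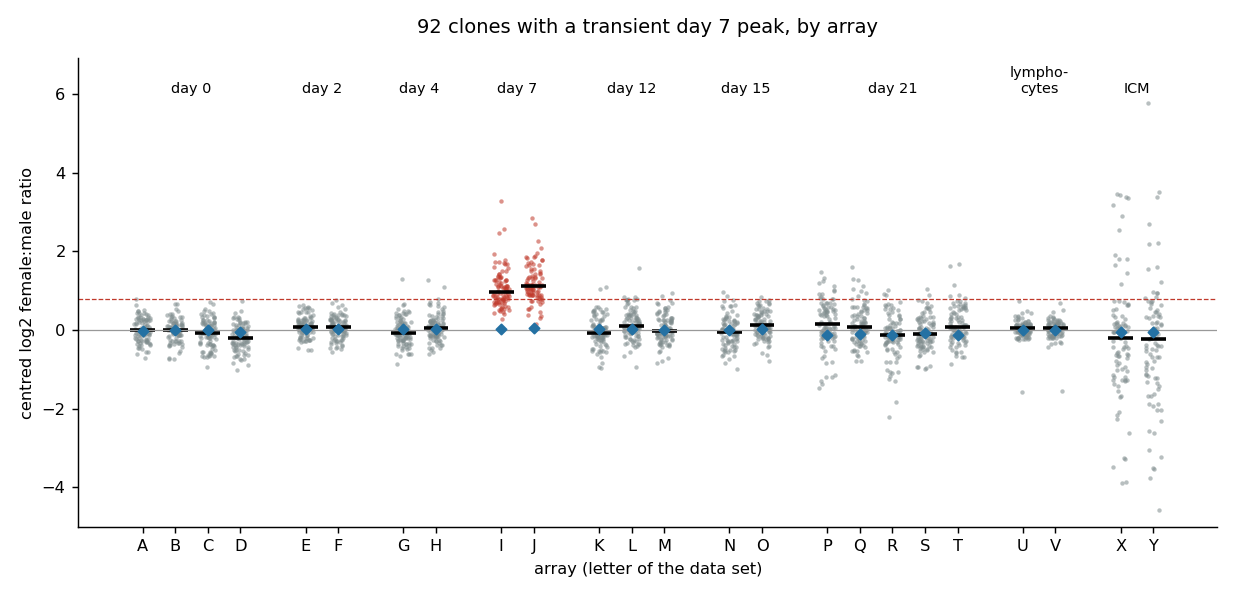
M values (centred log2 female:male ratio) of the 92 clones on each of the 24 arrays, one point per clone, with a black bar at their median and a blue diamond at the median of the clones measured on every ES cell array. The dashed line is the day 7 limit of 0.8; the bars stand at 0.97 and 1.11 on arrays I and J and between -0.24 and 0.15 on the other arrays, and the points of ICM spread most widely.

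The day 7 arrays I and J shared the direction of every member but not its size. The limit on their mean makes a positive value on both arrays likely, so the shared direction is not a finding. All 92 clones were above 0 on both arrays, and 80 were at 0.5 or more on both. Over all 3527 clones the sign was the same on both arrays in 68.5%. At the limit itself the arrays differed: 45 clones reached 0.8 on both, 15 on array I only and 32 on array J only. Single values ranged from 0.161 to 3.27, and the difference between the arrays had a median size of 0.505 and a largest size of 2.81. It exceeded 1 in 9 clones. Array J was the higher in 58 clones and array I in 34. The difference, array J minus array I, had a median of 0.22 in the set and 0.12 over all 3527 clones. Array I carries the label that mentions removal of spots by hand and array J does not, and the part of that in the difference was not tested. Over the members the correlation of the arrays was 0.08 (n = 92 clones), against 0.59 over the 3527 clones. The limit on the mean of both arrays restricts the range of the members, so the first value is a description of the chosen clones only. Over the 3527 clones, the correlation of a day 7 array with any other ES cell array lay between -0.12 and 0.45, below that of the day 7 arrays with each other. Clones share the arrays, so these are not independent points.

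**Figure D2:**
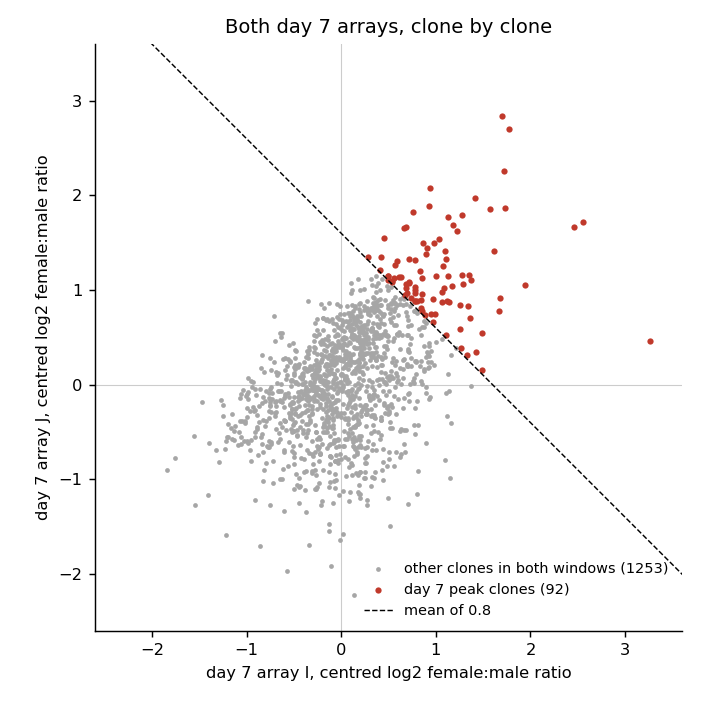
M value of each clone on day 7 array I (x axis) and array J (y axis), centred log2 ratio, for the 92 members and the 1253 other clones that met the early and late limits. The dashed line marks a mean of 0.8; 45 members reach 0.8 on both arrays, and the one farthest to the right is at 3.27 on array I and far lower on array J.

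Both day 7 values lay above the values of all 18 other ES cell arrays in 56 members and did not in the remaining 36. The limits on the means favour such a separation, and it was not counted for other clones. The 56 therefore describe the chosen clones only. The gap between the lower day 7 value and the highest other value had a median of 0.12 and ranged from -0.98 to 1.36. A limit on means over several days still lets a single day stand out. All 6 other day means were under 0.5 in size in 58 members. The day with the next largest mean in size, of either sign, was day 21 in 27 members, day 15 in 21, day 12 in 17, day 4 in 16, day 2 in 6 and day 0 in 5, and the size of this next mean had a median of 0.45. It reached 0.8 in 2 members, with a mean of 0.97 at day 4 in one and of -0.82 at day 15 in the other. Day 7 had the highest of the 7 day means in all 92 members. The limits on the means make this likely, so it is not a finding. Values separate from every other ES cell array were seen in 56.

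In both directions and without regard to the early and late limits, 348 of the 3527 clones had a day 7 mean of at least 0.8 and 181 had one of -0.8 or less. Of the 348, 159 were excluded from the set by an early mean above 0.25, 42 by one below -0.25, 44 by a late mean above 0.3 and 11 by one below -0.3. The mirror set, low at day 7 by the same limits with the sign turned, held 46 clones. For a description of how often a single day stood apart, the same form of limits was applied to each inner day in turn, with the early and late means formed from the days before and after it. This comparison was chosen after the values had been seen. It gave 15 clones high and 10 low at day 2, 27 and 12 at day 4, 13 and 6 at day 12, and 27 and 19 at day 15, beside 92 and 46 at day 7. In the order of days 2, 4, 7, 12 and 15, the clones inside the early and late limits numbered 1386, 1317, 1345, 1098 and 1077. In the same order, clones at or above 0.8 on every array of the day numbered 5, 16, 45, 1 and 11. Without the early and late limits, day means of 0.8 or more in size were also commonest at day 7. In the same order of days, they made up 8.02%, 8.22%, 15.0%, 4.71% and 7.91% of all 3527 clones. The larger counts at day 7 are therefore not particular to clones inside the early and late limits. Day 12 had 3 arrays and the other days 2, and the 2 arrays of a day need not have equal spread, so the counts are not measured with equal precision.

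**Figure D3:**
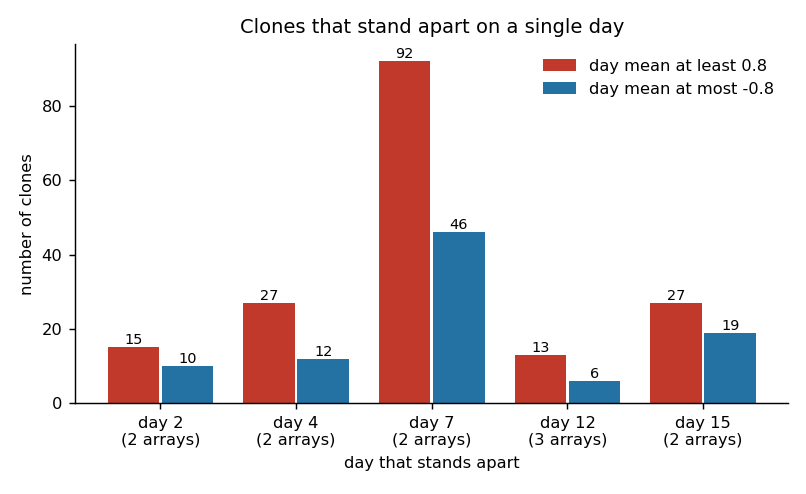
Number of clones (y axis) whose mean on one inner day (x axis, with its number of arrays) was at least 0.8 (red) or at most -0.8 (blue) while the means of the days before and after it stayed inside the early and late limits. Day 7 has 92 high and 46 low clones, and no other inner day has more than 27. Without the early and late limits, 15.0% of all 3527 clones had a day 7 mean of 0.8 or more in size. On the other inner days this share was 4.71% to 8.22%.

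Before the peak the early limit held the mean of each member over days 0 to 4 near 0. At day 0 the members' medians were 0.01, 0.00, -0.09 and -0.19 on arrays A, B, C and D. The day 0 mean of a clone ranged from -0.53 to 0.39, with a median of -0.09 and 29 of 92 means (31.5%) above 0. Over the 3527 clones the median of the day 0 means was -0.01, and 48.5% of them were above 0. Whether the members differ in this was not tested. All day 0 means were smaller in size than any day 7 mean, which the early and day 7 limits make likely. At day 2 the medians were 0.09 and 0.08 on arrays E and F, and a clone's mean ranged from -0.45 to 0.61 with a median of 0.11. Positive means were in the majority at this day, 59 of 92 (64.1%), as they were over the 3527 clones (53.4%). At day 4 the medians were -0.09 and 0.06 on arrays G and H, with means from -0.71 to 0.97 and a median of -0.01. The day 4 mean was above 0 in 45 of 92 members (48.9%), against 52.5% of the 3527 clones. One day 4 mean exceeded 0.8.

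Because only the mean of days 0 to 4 was limited, differences among these days could be tested. They were fitted with limma over all 7122 clones present on 1 array or more of every day, with a mean per day over the 20 ES cell arrays and Benjamini-Hochberg adjustment over the 7122, and a clone with an adjusted p under 0.05 was called. Between day 0 and day 4, 0 of the 92 members were called, against 0.0983% of all clones tested. At an unadjusted p under 0.05 there were 7 members (7.61%), against 9.60% of all clones. The day 4 minus day 0 difference had a median of 0.11 in the set and 0.06 over all clones, and a median standard error of 0.30 for a member. Between day 0 and day 2, 0 of 92 were called, against 0% of all clones, and 5 (5.43%) had an unadjusted p under 0.05, against 3.45%. All 5 were higher at day 2. The day 2 minus day 0 difference was above 0 in 68 of 92 members, a share that was not counted over other clones. Its median was 0.15 in the set, against 0.05 over all clones. It was 0.04 over the 1207 clones that met the early and late limits with a day 7 mean inside ±0.8. The count of 68 moved with the processing. With centring on the clones measured on every ES cell array it was 61, with medians of 0.11 in the set and 0.01 over all clones. Without day 0 array D it was 59, with medians of 0.10 and 0.03. With dye as a covariate it was 74, with medians of 0.17 and 0.04. The typical member's difference between day 0 and day 2 was smaller than its standard error. The step from day 4 to day 7 was not tested, as day 7 chose the members. Between day 0 and day 4, 1 member was called with arrays scaled to a common spread, against 1.64% of all clones. With array weights 2 were called, against 2.95%.

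After the peak the set was again spread around 0. At day 12 the medians were -0.07, 0.10 and -0.03 on arrays K, L and M, and the mean of a clone ranged from -0.57 to 0.78, with a median of 0.03. At day 15 the medians were -0.05 and 0.12 on arrays N and O, and the means ranged from -0.82 to 0.78, with a median of 0.05. At day 21 the medians were 0.15, 0.06, -0.13, -0.11 and 0.08 on arrays P, Q, R, S and T, with means from -0.60 to 0.75 and a median of 0.02. Over all 3527 clones the median of the day 21 means was -0.13, and the members' median was above that of the 3527 clones on arrays P, Q and T and slightly below it on R and S. Day 21 enters the late mean that chose the members. The female sample carried Cy3 on arrays A, N, O and P and Cy5 on the other 16 ES cell arrays, including both of day 7. On the 14 Cy5 arrays of other days the members' median was -0.19 to 0.10, where the early and late limits hold it near 0. At day 21 the Cy3 array (P) minus the mean of the Cy5 arrays had a median of 0.22 in the set and 0.04 over the 3527 clones. Array P is also the only day 21 array whose label does not mention removal by hand, so dye and that label cannot be told apart here.

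Between day 12 and day 15, 0 of 92 members were called, against 0.253% of all clones tested. There were 5 (5.43%) at an unadjusted p under 0.05, against 11.9%, and the median difference was 0.05 in the set and -0.04 over all clones. Between day 12 and day 21, 8 of 92 members (8.70%) were called, against 20.0% of all clones and 13.7% of the 1207 clones with no day 7 extreme. Both of the smaller sets have a late mean limited to near 0, which the other clones tested need not have. Of the 8, 5 had risen at day 21 (9.39% of all clones did) and 3 had fallen (10.6% of all clones did). The differences of the 8 ranged from -0.98 to 1.15 on the log2 scale. The median difference was -0.03 in the set and -0.15 over all clones. With each array centred on the 3527 clones instead, these medians were 0.11 and -0.01, and 10 members had risen and 3 had fallen. The balance of directions also moved with dye as a covariate, to 6 and 6, and with array weights, to 8 and 10. In the order given, these alternatives called 18.4%, 22.4% and 29.8% of all clones. Leaving out array K or L of day 12 left 4 or 5 called members, against 6.31% or 6.93% of all clones. Leaving out array P or R of day 21 gave 13 or 14, against 23.6% or 22.8%. With the arrays of days 12 and 21 alone in the model, 1 member was called, against 8.49% of all clones. The share over all clones thus moved as well. Between day 15 and day 21, 1 of 92 (1.09%) was called, against 1.68% of all clones, with a difference of 1.31 (adjusted p = 0.0116 from limma). With dye as a covariate or with the arrays of both days alone, 0 members were called, against 1.04% and 0.127% of all clones. Without array P or R, 3 were called, against 7.82% or 4.65%.

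Clone H3050g09 had the highest lower value of both day 7 arrays. Its M values at day 7 were 1.78 on array I and 2.70 on array J, a mean of 2.24 ± 0.66 (SD, n = 2). Earlier values were -0.07, 0.09, 0.22 and 0.43 (day 0), 0.22 and 0.18 (day 2) and -0.04 and -0.12 (day 4). The day 7 values did not overlap with those of any earlier array, which the choice of this clone by its day 7 values makes likely. Later values were -0.22, -0.22 and -0.37 (day 12), -0.15 and 0.48 (day 15) and 0.91, 0.49, 0.46, 0.33 and 0.63 (day 21). All 5 day 21 values were above all 3 day 12 values, and the difference was 0.83 (standard error 0.22, adjusted p = 0.0161 from limma). Without any one of the day 12 arrays the adjusted p was 0.0563 or 0.0564, and with the arrays of both days alone it was 0.0587. The clone was at 0.11 and 0.04 in lymphocytes and at -0.04 and -0.20 in ICM, near the level of days 0 to 4.

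The second clone by the lower day 7 value, H3022g05, had the closer pair of values. They were 1.73 and 1.86, a mean of 1.80 ± 0.09 (SD, n = 2). All 4 of its day 0 values were negative, at -0.28, -0.13, -0.50 and -0.39, and its values were 0.26 and 0.05 at day 2 and -0.20 and 0.12 at day 4. After the peak it was at -0.50, -0.23 and -0.30 at day 12 and at -0.06 and 0.05 at day 15. At day 21 it was at 0.50, 0.74, 0.08, 0.27 and 0.60, above every day 12 value. This difference, 0.78 (standard error 0.18), passed the test with an adjusted p of 0.00854 from limma, which became 0.0557 without array K of day 12 and 0.0778 with the arrays of both days alone. In lymphocytes the values were -0.20 and -0.21, while the ICM values, -1.19 and 0.46, lay on both sides of 0. Both clones had a mean near 0 over days 12 to 21 that joined negative day 12 values to positive day 21 values.

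**Figure D4:**
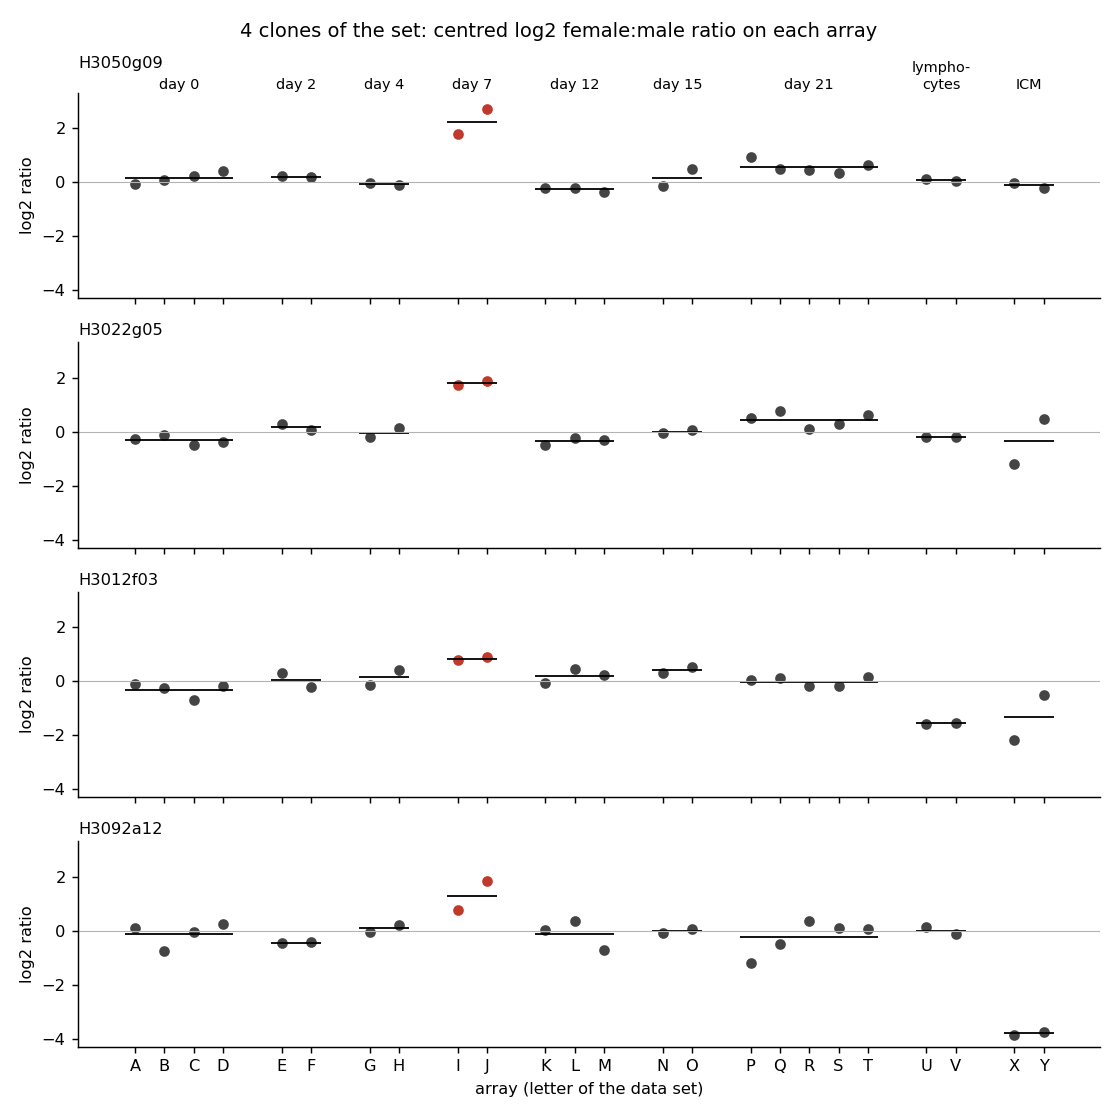
M value (y axis, centred log2 female:male ratio) of the 4 named clones on each of the 24 arrays (x axis), one point per array, day 7 in red, with a black bar at the mean of each group. H3050g09 and H3022g05 reach 2.24 and 1.80 at day 7; the low points are H3012f03 in lymphocytes (-1.58 and -1.54) and H3092a12 in ICM (-3.86 and -3.75).

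Thymic lymphocytes showed little sex difference in these clones. The median of the members was 0.06 on array U and 0.05 on array V. The mean of both arrays was available for 90 members and ranged from -1.56 to 0.71, with a median of 0.06 against 0.00 over all 7781 clones measured on both arrays. Its median size was 0.12 in the set and 0.15 over all clones. Values of either sign occurred, with 47 members above 0 on both arrays and 27 below 0 on both. Of the 3362 clones measured on both arrays and on every ES cell array, 1375 were above 0 on both and 1320 below. Of the 90, 3 (3.33%) were called by limma on these arrays alone, against 10.9% of all clones and 7.37% of the clones with no day 7 extreme. A pair was higher in females (5.27% of all clones were), with M values of 0.71 (adjusted p = 0.0254) and 0.48 (adjusted p = 0.0344). The former clone was also among the 3 that had fallen between day 12 and day 21, by 0.92 (adjusted p = 0.0202 from limma). Lower in females was 1 member (5.68% of all clones were). These calls rest on the close values of 2 arrays, and in a model over all 24 arrays, where the spread is shared with the ES cell arrays, 0 members were called, against 0.0129% of all clones.

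The member lower in female lymphocytes was H3012f03, at -1.58 on array U and -1.54 on array V, or -1.56 with a standard error of 0.06 (adjusted p = 0.0152 from limma). In the model over all 24 arrays the adjusted p was 0.144. The value was separated from that of every other member in lymphocytes. At day 7 the clone was at 0.78 and 0.88, a mean of 0.83 ± 0.07 (SD, n = 2), close to the lower limit of the set. Before it, the values were -0.11, -0.26, -0.69 and -0.19 at day 0, 0.30 and -0.21 at day 2 and -0.14 and 0.42 at day 4. After it, they were 0.45 at most on the 3 arrays of day 12, 0.31 and 0.54 at day 15 and -0.19 to 0.13 at day 21. The day 7 values were thus above those of all other ES cell arrays, with day 15 the nearest. The choice of the members favours such an order. In ICM the clone was at -2.17 and -0.50, so that it was below 0 on all 4 arrays of Balb/c cells, where the female and male samples shared a strain.

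**Figure D5:**
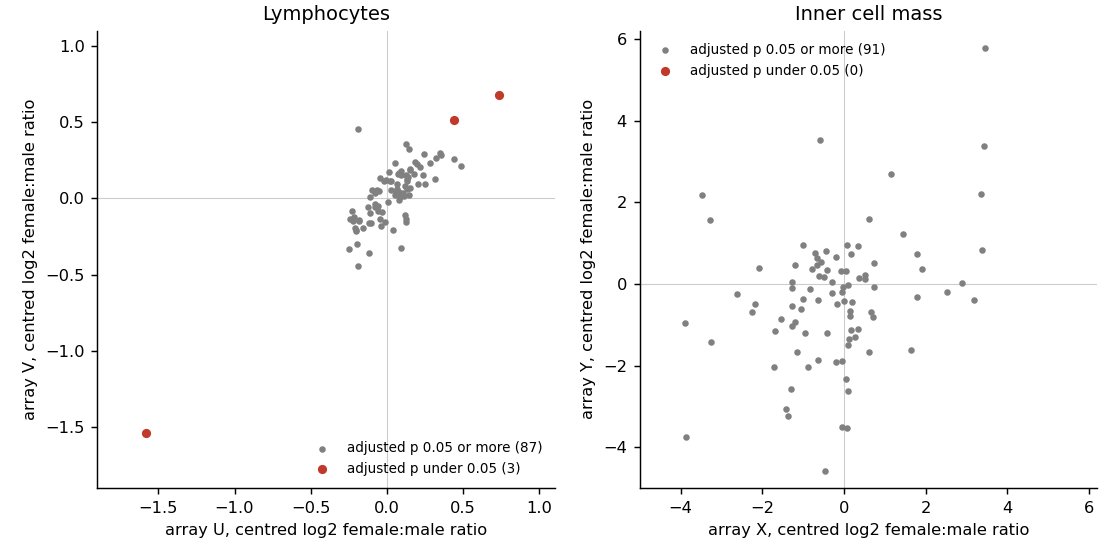
M values (centred log2 female:male ratio) of the members on both arrays of lymphocytes (left, U on the x axis and V on the y axis) and of inner cell mass (right, X and Y), with clones called by limma in red. In lymphocytes 3 of 90 members are called, at means of -1.56, 0.48 and 0.71; in ICM 0 of 91 are, and the axes are several times longer.

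In ICM the values of the set were widely scattered. The median of the 91 members with values was -0.20 on array X and -0.24 on array Y. The mean of both arrays ranged from -3.81 to 4.61. It had a median of -0.26, against -0.03 over all 11515 clones measured on both arrays and -0.12 over the clones with no day 7 extreme. The mean was above 0 in 29 of 91 members (31.9%), against 45.0% of the clones measured on every ES cell array, and whether this differs from other clones was not tested. The sign was the same on both arrays in 57.1% of the members and in 58.4% of those clones. Of the 91 members 0 were called, against 0% of all clones, and 12 (13.2%) had an unadjusted p under 0.05, against 13.5%. Of these 12, 4 were higher and 8 lower in females. The median standard error of a member was 0.55. No clone was called although the means over all 11515 clones ranged from -6.77 to 7.73. The count of 0 therefore says nothing about the members, and differences of the size of the day 7 peak could not be called. In the model over all 24 arrays, in which the smaller spread of the ES cell arrays is shared, 38 of the 91 members were called. Of all 11515 clones, 3204 (27.8%) were called. The median standard error there was 0.31 for a member and 0.38 over all clones, so the shares are not measured alike.

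The lowest ICM mean of the set belonged to H3092a12, at -3.86 on array X and -3.75 on array Y. The adjusted p was 0.20 from limma on the ICM arrays alone and 1.34e-07 in the model over all 24 arrays. At day 7 it was at 0.76 and 1.83, a mean of 1.30 ± 0.75 (SD, n = 2), so the arrays differed by more than the size of the lower value. Its earlier values were 0.08, -0.75, -0.07 and 0.24 (day 0), -0.47 and -0.44 (day 2) and -0.04 and 0.20 (day 4). Its later values were 0.01, 0.35 and -0.70 (day 12), -0.09 and 0.05 (day 15) and -1.19, -0.50, 0.35, 0.08 and 0.07 (day 21). No other ES cell value reached the lower day 7 value, which the choice of the members favours. The clone was at 0.13 and -0.14 in lymphocytes, so the strongly negative values were seen in ICM and in no other group.

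The height of the peak was not closely tied to the values elsewhere. Across the members, Pearson's r of the day 7 mean with the mean of another group was -0.18, -0.25 and -0.23 for days 0, 2 and 4 and -0.09, 0.10 and 0.15 for days 12, 15 and 21 (n = 92 clones). It was -0.03 in lymphocytes (n = 90) and -0.06 in ICM (n = 91). These are descriptions of a set chosen by the day 7 mean, over clones that share the same arrays. The rest of the course of the members was also compared pair by pair. The early and late limits hold their means there near 0, which can lower such correlations. The same correlations were not taken over other clones. Over the 18 ES cell arrays other than day 7, the 4186 pairs of members had a median r of 0.08, from -0.86 to 0.98, with 15 pairs above 0.8 and 1 above 0.9. That pair lay in adjacent wells of 1 library plate, had r of 0.98 and had day 7 values of 2.46 and 1.66 in one clone and 2.55 and 1.72 in the other, and it was the only pair of members in adjacent wells of a row. Whether both clones derive from the same transcript is not known here. The members came from 68 of the 159 plates of the library, with 1 member on 50 plates, 2 on 13, 3 on 4 and 4 on 1. The set was therefore not gathered on a few plates.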

How the data were processed

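The authors deposited log2 ratios per cDNA clone and array, read here as female:male, which is likely but not stated in the files. The authors scanned slides printed with duplicate spots with balanced channels, removed abnormal spots by hand, and used GenePix 6.0 for extraction and Gepas for normalisation. Not given in the sources used here are the normalisation method, how background was corrected and duplicate spots combined, and why some values are missing. Groups and dyes came from the sample labels. The median of each array was subtracted, members were found as described in the report, and clones were tested with limma 3.58.1 in R 4.3.3: a mean per day over 20 ES cell arrays (7122 clones), and lymphocyte and ICM arrays apart, with Benjamini-Hochberg adjustment and an adjusted p under 0.05. Only the test between day 12 and day 21 over the 20 ES cell arrays was run on simulated data. Median absolute deviations have the default scaling of R, for which a normal distribution gives its SD. Depth is unknown, as spot intensities were not used here. The members and lists were chosen with earlier results of these data known. Lists of marker genes could not be used, as clones have no gene names. The named clones are the 2 members with the highest lower day 7 value and those with the lowest mean in lymphocytes and in ICM. No sequences of clones are given. Alternatives were the deposited values, other centring, scaling, filters and directions, covariates for dye and for removal by hand, array weights, other models of the spread and each array left out.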

Additional observations from a re-analysis of the deposited data

Results flagged for a closer look

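Differences between day 7 and the Balb/c cells were noted where every array of one group lay above 0 and every array of the other below it. They were not tested as differences, and the choice of the members fixed the sign and the least size of the day 7 term in each difference, so neither is a finding. The median of the members was lower in ICM than at day 7 by a difference of 1.26 on the log2 scale, and the medians of the clones measured on every ES cell array were also below 0 on both ICM arrays, at -0.06. Day 7 minus ICM was 2.36 in H3050g09, 2.17 in H3012f03 and 5.11 in H3092a12. Day 7 minus lymphocytes was 2.01 in H3022g05 and 2.39 in H3012f03. Between day 12 and day 21, where the difference itself was tested with limma, H3022g05 rose by 0.78 (adjusted p = 0.00854, all 5 day 21 values above the 3 of day 12) and H3050g09 rose by 0.83 (adjusted p = 0.0161, likewise). By Dixon's test, the gap of an extreme array over the range, no array was flagged in the groups of 4 or 5 arrays examined. These were for the set's median and the named clones. With so few arrays the test can miss an outlying one. The largest gaps, both at day 0, were 0.75 of the range for array C in H3012f03 and 0.69 for array B in H3092a12.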

How the results depend on the processing

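The number of members was 92. It was 178 with a value required on only 1 array of each day (all 92 among them), 50 with medians for the early and late days and the lower array for day 7 (38 shared), 68 with centring on the 3527 clones (65 shared), 93 with the deposited values (90 shared), 93 with scaled arrays (70 shared) and 132 with values turned by the dyes (74 shared). Leaving out an ES cell array gave 83 to 147 members, the highest without array I of day 7 (77 shared), and 106 without array J (60 shared). The share of all clones called is given in brackets. Members called between day 0 and day 4 numbered 0 (0.0983%), and 1 with scaled arrays (1.64%) or 2 with array weights (2.95%). Between day 12 and day 21 they numbered 8 (20.0%), and 13 with centring on the 3527 clones (18.4%) and 18 with array weights (29.8%). They numbered 1 with the compared days alone (8.49%) and 4 to 14 with an array left out (6.31% to 23.6%). Between day 15 and day 21 they numbered 1 (1.68%), and 0 with dye as a covariate (1.04%) and 2 with array weights (5.25%). They numbered 0 with the compared days alone (0.127%) and 1 to 3 with a day 21 array left out (0.758% to 7.82%). In lymphocytes they numbered 3 (10.9%), and 0 in the model over 24 arrays with either filter (0.0189% and 0.0129%). In ICM they numbered 0, and 38 in the model over 24 arrays with either filter and 39 to 40 with an array left out, against 24.8% and 34.2% of all clones. The models over 24 arrays share the spread of the ES cell arrays. Leaving out an array of lymphocytes or ICM left a single array, and those counts are not given here. The cause of the other shifts was not tested. The counts of 0 between day 0 and day 2 and between day 12 and day 15 stayed at 0 under all alternatives run. The sign stayed the same in the values of named clones that were recomputed, which are the 4 day 7 means, the difference between day 12 and day 21 in H3022g05 and H3050g09, H3012f03 in lymphocytes and H3092a12 in ICM. The reading turned by the dyes was run for the number of members only. No pairing of arrays across days was possible, as each has a letter of its own and none was linked to a shared culture. With no intensities, the precision of single clones is known only from 2 to 5 arrays a group.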
